A study of Mus musculus with 5 samples.

Results

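Imprinted genes are transcribed mainly from the chromosome inherited from 1 parent, and 36 of them were examined for binding of the Krüppel-like zinc-finger factor KLF5 in mouse embryonic stem (ES) cells. The genes were taken from a list of imprinted and placental growth genes in 16 imprinted loci, out of 49943 RefSeq genes on assembled chromosomes. The list was chosen with earlier results of these data known. The genes comprise 30 protein-coding genes and 6 long noncoding RNA (lncRNA) genes. From textbook knowledge, 16 were classed as maternally expressed, 19 as paternally expressed and 1, Gnas, as both, because its alternative transcripts come from different parental alleles. A gene was assigned every V5-KLF5 peak whose summit, the position of highest read coverage, lay inside it or within 10 kb of it (mm10), and a summit in reach of several genes was counted once in totals.

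The series holds 5 libraries, each the only one of its kind. From C57B6/J-derived ES cells of wild-type background that overexpress KLF5 with a V5 tag, a short peptide epitope, there was an anti-V5 precipitate, a precipitate with normal mouse IgG and an input. A further anti-V5 precipitate and its input came from untagged wild-type ES-D3 cells, an established ES cell line, although the header of that peak list names the line JM8.N4 instead. The summits thus describe an overexpressed, tagged protein; the cells' own KLF5 is not seen, reads of the maternal and paternal alleles are not separated, and peak lists carry no RNA with which the cell type could be checked against marker genes. After removal of duplicates, the V5-KLF5 precipitate held 23.2 M (mega) tags and 45378 peaks, the IgG precipitate 24.5 M tags and 3 peaks, and the untagged V5 precipitate 21.8 M tags and 0 peaks.

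Imprinted genes lie in clusters in which a differentially methylated region (DMR), marked in the egg or the sperm, sets which parental copy is active. Several paternally expressed genes start inside a DMR methylated in the egg, and noncoding RNAs such as Kcnq1ot1 and Airn take part in silencing their neighbours. Many of these genes act on fetal and placental growth: paternally expressed genes such as Igf2 tend to promote it, and maternally expressed genes such as Cdkn1c, Phlda2, Igf2r and Grb10 tend to restrain it.

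V5-KLF5 summits were found at 33 of the 36 imprinted genes (91.7%), in a total of 97 distinct summits, while the IgG list and the list of the untagged cells held 0 peaks there. Among the protein-coding imprinted genes, 28 of 30 had a summit (93.3%), against 70.5% of all 21887 protein-coding genes. Among the lncRNA genes, 5 of 6 had a summit, against 51.2% of all 12727 lncRNA genes. The median length was 26090 bp for the protein-coding imprinted genes and 17169 bp for all protein-coding genes. For the lncRNA genes it was 44253 bp, against 8429 bp for all lncRNA genes. The imprinted genes of both kinds thus offered larger windows. Genes of a cluster share summits: 14 summits were in reach of 2 or more of the genes, and these counts are therefore descriptions within 1 library and carry no test. Taken summit by summit, the 97 had a median fold enrichment over input of 5.33 (quartiles 4.15 and 7.04), against 5.18 (4.15 and 7.45) for the other 45269 peaks, and 12.4% of them reached a fold enrichment of 10, against 13%. The windows of the imprinted genes held 34.4 summits per Mb, against 27.1 per Mb in the windows of all protein-coding genes. The fold enrichment is the authors' value for each peak, with no replicate.

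**Figure D1:**
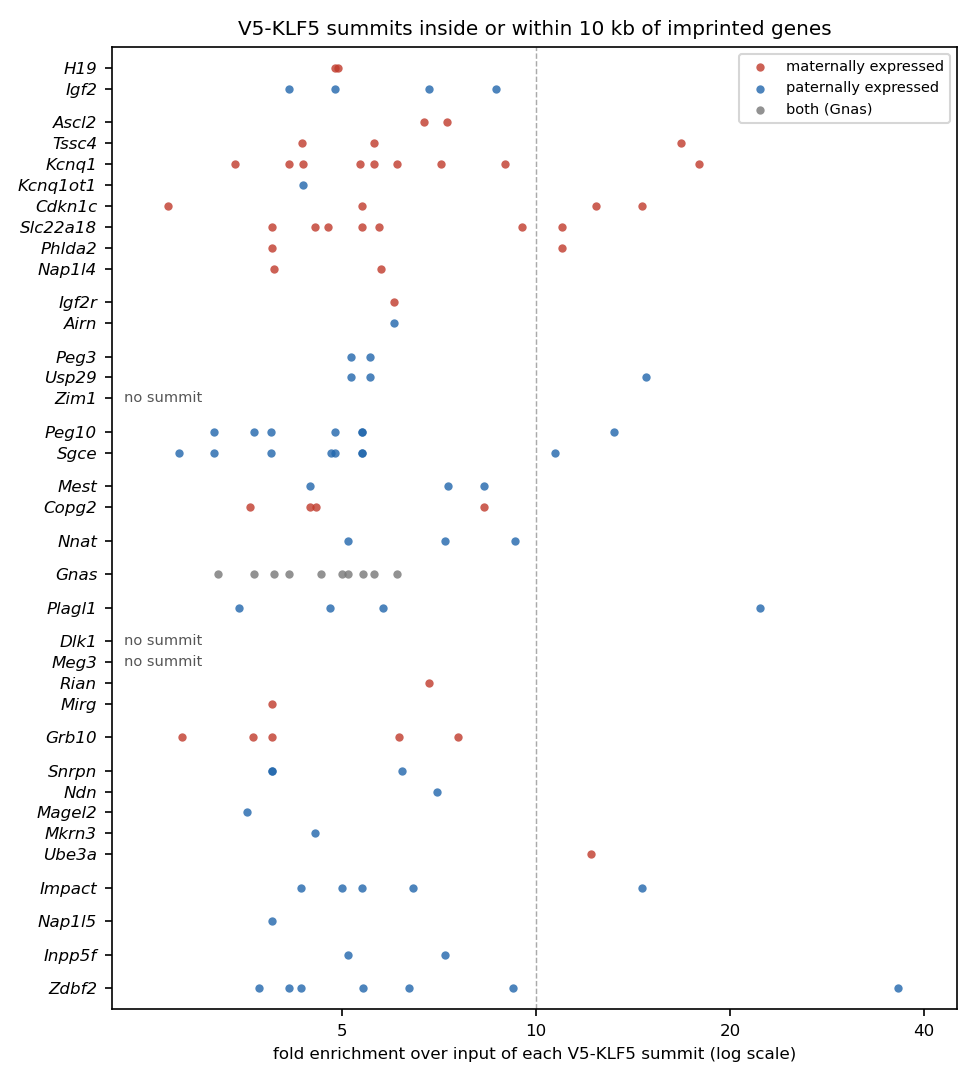
Fold enrichment over input (x axis, log scale) of every V5-KLF5 summit inside or within 10 kb of each imprinted gene (rows, grouped by imprinted locus), with 1 point for each gene and summit, so that shared summits appear in several rows. The points run from 2.69 at Cdkn1c to 36.4 at Zdbf2, the dashed line marks a fold enrichment of 10, and Zim1, Dlk1 and Meg3 have no summit.

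The start regions below show where summits met or missed annotated starts. RefSeq windows (GRCm38.p6, the assembly named mm10) that run from 250 bases before to 50 bases after a start were available for 29 of the 36 genes. KLF proteins bind GC-rich and CACCC-type boxes, and the windows were searched on both strands for the words CCACACCC, CCACGCCC, CCCCACCC and CCCCGCCC, with overlapping matches each counted. Capitals mark those words. The first 3 windows are those with the strongest summits inside, and Igf2r is added because its summit is also in reach of Airn. The downstream start of Meg3 holds the words without a summit, and the start of Kcnq1ot1 holds neither.
Zdbf2, distal start, chr1:63200108-63200407, plus strand: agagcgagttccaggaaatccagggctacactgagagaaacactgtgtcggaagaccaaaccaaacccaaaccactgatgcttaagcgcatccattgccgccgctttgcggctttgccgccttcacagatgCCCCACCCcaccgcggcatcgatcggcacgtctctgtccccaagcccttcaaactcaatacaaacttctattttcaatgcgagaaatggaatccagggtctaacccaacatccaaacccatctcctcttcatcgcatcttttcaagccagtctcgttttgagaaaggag
Ube3a, chr7:59228500-59228799, plus strand: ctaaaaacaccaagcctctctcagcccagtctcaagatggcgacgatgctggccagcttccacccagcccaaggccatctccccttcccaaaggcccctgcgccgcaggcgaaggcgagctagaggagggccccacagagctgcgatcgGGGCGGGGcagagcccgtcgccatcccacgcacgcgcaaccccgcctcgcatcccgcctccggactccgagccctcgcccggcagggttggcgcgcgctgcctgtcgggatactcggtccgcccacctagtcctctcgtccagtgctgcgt
Phlda2, chr7:143502475-143502774, minus strand: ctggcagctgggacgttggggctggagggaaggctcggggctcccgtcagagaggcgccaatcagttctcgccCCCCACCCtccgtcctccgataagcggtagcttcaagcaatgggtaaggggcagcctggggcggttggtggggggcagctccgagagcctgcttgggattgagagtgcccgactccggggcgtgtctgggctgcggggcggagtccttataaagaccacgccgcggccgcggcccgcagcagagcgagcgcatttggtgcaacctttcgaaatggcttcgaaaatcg
Igf2r, chr17:12769657-12769956, minus strand: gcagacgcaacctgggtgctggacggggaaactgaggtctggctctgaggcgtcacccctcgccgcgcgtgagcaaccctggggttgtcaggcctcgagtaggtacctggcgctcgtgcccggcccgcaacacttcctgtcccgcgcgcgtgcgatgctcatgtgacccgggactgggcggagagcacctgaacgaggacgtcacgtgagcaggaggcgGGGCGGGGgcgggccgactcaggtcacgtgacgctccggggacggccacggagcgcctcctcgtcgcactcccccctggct
Meg3, downstream start, chr12:109545148-109545447, plus strand: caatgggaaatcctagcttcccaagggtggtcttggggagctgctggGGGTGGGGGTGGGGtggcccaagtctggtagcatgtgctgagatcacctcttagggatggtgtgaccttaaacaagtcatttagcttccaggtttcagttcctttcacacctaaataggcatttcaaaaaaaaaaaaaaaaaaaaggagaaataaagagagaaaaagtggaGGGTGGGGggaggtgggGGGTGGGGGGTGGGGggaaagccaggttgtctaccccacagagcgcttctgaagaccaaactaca
Kcnq1ot1, chr7:143296498-143296797, minus strand: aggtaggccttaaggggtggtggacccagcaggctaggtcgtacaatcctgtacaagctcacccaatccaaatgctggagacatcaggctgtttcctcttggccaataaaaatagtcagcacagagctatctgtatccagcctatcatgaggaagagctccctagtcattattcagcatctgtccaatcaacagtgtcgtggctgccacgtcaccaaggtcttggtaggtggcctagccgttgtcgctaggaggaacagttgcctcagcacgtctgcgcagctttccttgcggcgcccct

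In the Zdbf2 window the only KLF word, CCCCACCC, began at position -119 from the start site, and the summit of that peak stood at -117. Ube3a, Phlda2 and Igf2r also had 1 word each. In Ube3a the word began at -101 and the summit stood at 11. In Phlda2 the word began at -177 and the summit stood at -226, and in Igf2r the word began at -31 and the summit stood at -100. The Meg3 window had 5 copies of GGGTGGGG, the reverse complement of CCCCACCC. A KLF word was found in 11 of the 13 windows of imprinted genes with a summit inside (84.6%) and in 11 of the 29 without (37.9%). Over all RefSeq windows the shares were 59.9% of the 6382 with a summit inside and 22.5% of the 26435 without. The 29 windows include nearly identical ones of Mest and of Gnas. They also include starts with a summit just past the window, as at Inpp5f (82 bp downstream) and Nap1l5 (85 bp downstream). Windows with a summit were also richer in CpG, with a median of 23 CpG among the imprinted genes with a summit and 13 among those without, against 23 and 5 over all windows. A match describes letters only.

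Summits lay at the starts of many protein-coding imprinted genes. Of the 24 protein-coding genes with an annotated start, 19 had a summit within 1 kb of at least 1 start (79.2%), against 51.7% of all protein-coding genes with a start. A gene with several starts had more chances to be counted. The imprinted genes had 42 start windows over 29 genes, against 32817 over 26994 genes in all. Of the 5 lncRNA genes with an annotated start, Kcnq1ot1, Airn, Meg3, Rian and Mirg, 0 had one, against 20.0% of all lncRNA genes with a start, and nothing is read from so few genes. Of the genes classed from textbook knowledge as starting in an egg-methylated DMR, 9 had an annotated start. Mest, Nnat, Plagl1, Snrpn and Nap1l5 (5 of 9) had a summit within 1 kb of a start, against 14 of the other 20 genes. The class was given per gene, and single starts were not classed. The other 20 thus include Zdbf2 and Gnas, which have several starts and summits near them, and no difference is read from these shares. The facing starts of Peg3 and Usp29 had the same nearest summit, just outside that limit, 1007 bp downstream of the Peg3 start and 1171 bp upstream of the Usp29 start.

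**Figure D2:**
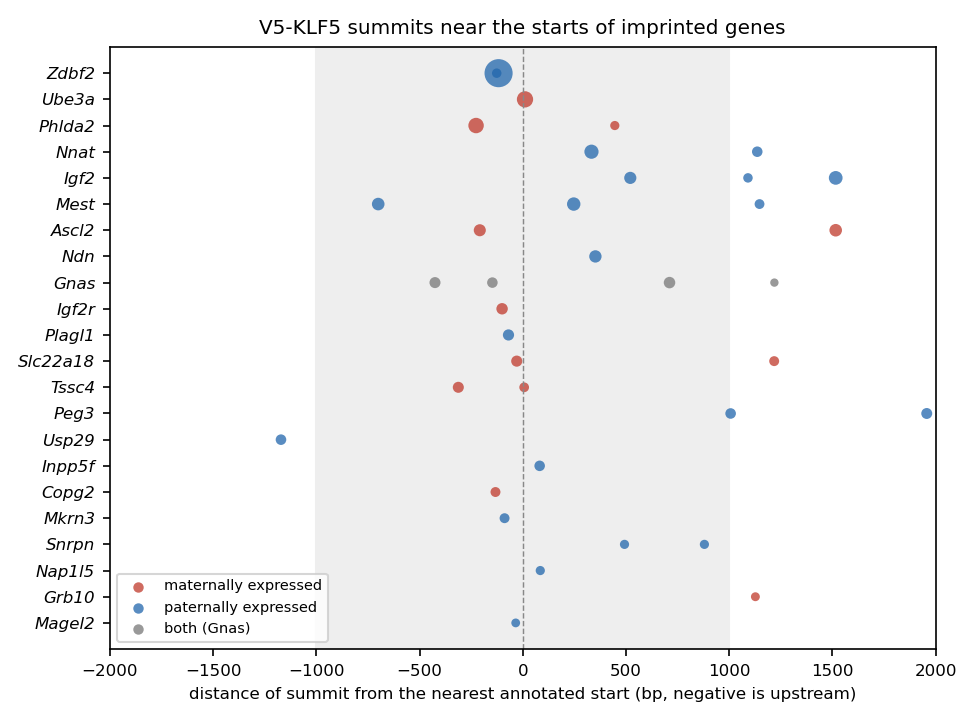
Distance of V5-KLF5 summits from the nearest annotated start (x axis, bp, negative upstream) for the imprinted genes with a summit within 2000 bp of a start (rows), with point area proportional to the fold enrichment and the zone within 1 kb shaded. The largest point is the summit 117 bp upstream of the distal Zdbf2 start (36.4), and all shaded points other than the strongest of Zdbf2, Ube3a and Phlda2 have a fold enrichment below 10.

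The strongest peak lay at Zdbf2, a paternally expressed gene named for a zinc-finger domain, for which a long transcript from a distal promoter is known in early mouse embryos. That peak (chromosome 1, 63199974 to 63200680) had a pileup of 148, a fold enrichment of 36.4 and a −log10 q of 183, and ranked 56 among 45366 peaks. Its summit stood 117 bp upstream of the distal Zdbf2 start, inside the neighbouring imprinted gene Gpr1. The downstream start of Zdbf2 had a weak summit 126 bp upstream, with a fold enrichment of 4.15. The other 5 Zdbf2 summits ranged from 3.72 to 9.21.

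Plagl1, which encodes a zinc-finger regulator of other imprinted genes, had the next strongest peak. It lay inside the gene (chromosome 10, 13107698 to 13108465), 17314 bp downstream of the annotated start, with a pileup of 97, a fold enrichment of 22.3 and a −log10 q of 99.0. At the start itself, a summit 69 bp upstream had a fold enrichment of 5.79. Peaks above 10 also lay away from gene ends at other paternally and maternally expressed genes, among them the paternally expressed Usp29 and Impact. No annotated start was available for Impact. Usp29, a ubiquitin protease gene, had its strongest summit 40017 bp into the gene (chromosome 7, 6770159 to 6771030), with a pileup of 64, a fold enrichment of 14.8 and a −log10 q of 54.1. Impact, a regulator of translation, had its strongest summit 7037 bp outside the gene (chromosome 18, 12946817 to 12947973), with a pileup of 59, a fold enrichment of 14.6 and a −log10 q of 50.1, at a position nearer to Osbpl1a.

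Peg10, a retrotransposon-derived gene needed for the placenta, and its neighbour Sgce, which encodes epsilon-sarcoglycan, together had 10 summits on chromosome 6. The strongest peak in reach of Peg10 (4769807 to 4770256) stood 9529 bp outside the gene, with a pileup of 53, a fold enrichment of 13.2 and a −log10 q of 42.6. The strongest of Sgce (4677481 to 4678082) lay inside the gene, 3371 bp from its far end, with a pileup of 67, a fold enrichment of 10.7 and a −log10 q of 45.4. Around the facing ends of the pair, summits 569 bp outside Peg10 and 956 and 2033 bp inside it had fold enrichments of 5.37, 3.17 and 4.88. Both high peaks lay on the outer sides of the pair.

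The Kcnq1 domain of distal chromosome 7 held 26 of the 97 summits, and all 8 of its genes had at least 1. Its maternally expressed genes are silenced on the paternal copy through Kcnq1ot1. Kcnq1, a potassium channel gene, carried 9 summits, 7 of them within 50 kb of its left end. The strongest (143124053 to 143124745) had a pileup of 99, a fold enrichment of 17.9 and a −log10 q of 89.4. To the right of that group, the only summit inside Kcnq1ot1 had a fold enrichment of 4.35 and stood 41404 bp from the Kcnq1ot1 start, which was also the nearest summit to that start. From there to the next summit there was a gap of 164925 bp. The input background under the Kcnq1ot1 summit was 6.13, at the 95th percentile of all peaks, against a median of 3.45.

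**Figure D3:**
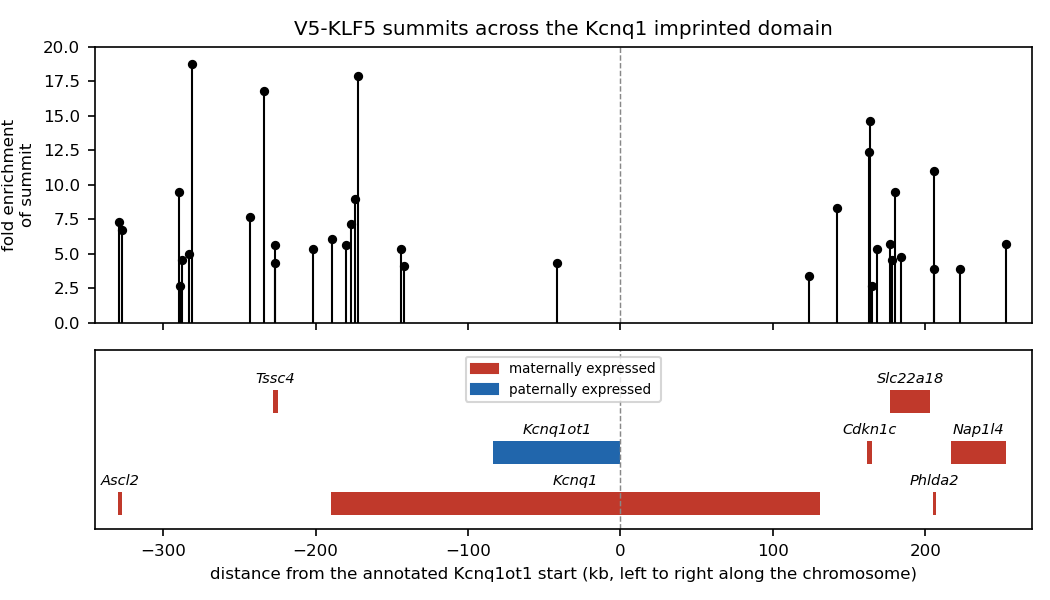
Fold enrichment of V5-KLF5 summits (upper panel) and positions of the 8 imprinted genes examined there (lower panel) against the distance from the annotated Kcnq1ot1 start (kb). All 34 summits of the interval are drawn, including those in reach of none of the 8 genes, and the start of Kcnq1ot1 (dashed line) lies in the gap between summits at -41.4 and 124 kb.

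On the right side of the domain, the growth-restraining genes Cdkn1c and Phlda2 had high peaks. Cdkn1c, which encodes the cyclin-dependent kinase inhibitor p57, had 4 summits. The strongest (143460453 to 143461219) stood 76 bp inside an end of the gene, with a pileup of 59, a fold enrichment of 14.6 and a −log10 q of 50.1, and another inside the gene had 12.4. Phlda2, a pleckstrin-homology gene that limits placental growth, had its strongest summit 226 bp upstream of the start (143502263 to 143503150), with a pileup of 44, a fold enrichment of 11 and a −log10 q of 32. The same summit was the strongest in reach of the transporter gene Slc22a18, whose own strongest summit had 9.52. Tssc4 lies on the left side of the domain. Its strongest summit (143062487 to 143063291, with pileup 80, fold enrichment 16.8 and −log10 q 71.1) lay inside Cd81, 5574 bp outside Tssc4. The summits in Tssc4 had 5.62 and 4.34. Ascl2, a transcription factor gene required for the trophoblast of the placenta and also on the left side, had 7.28 inside the gene. A further summit 208 bp upstream of its start had 6.71, on an input background of 6.90. Nap1l4, a histone chaperone gene on the right side, had 5.75 and 3.93.

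At the H19 and Igf2 locus, 6 summits were found on distal chromosome 7. Igf2, the fetal growth factor gene, had 4, all inside it. The strongest (142655669 to 142656483) had a pileup of 41, a fold enrichment of 8.69 and a −log10 q of 25.1, and the others had 6.83, 4.88 and 4.15. The lncRNA gene H19 had no summit inside. Summits 2086 and 3717 bp outside it had fold enrichments of 4.88 and 4.93 with pileups of 19 and 20. A methylated control region is known near H19, and its borders were not used here.

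Receptor and adaptor genes of growth signalling had modest peaks. Igf2r, which encodes the receptor that clears IGF2, had a single summit, 100 bp upstream of its start (chromosome 17, 12769603 to 12770109), with a pileup of 42, a fold enrichment of 6.03 and a −log10 q of 18.5. It also lies inside the overlapping lncRNA gene Airn, 28495 bp from the Airn start, and was the only summit of Airn as well. Its input background was 6.13. Grb10, which encodes an adaptor that dampens insulin and IGF signalling, had 5 summits from 2.83 to 7.57. The strongest (chromosome 11, 11948945 to 11949429; pileup 30, −log10 q 17.1) was deep inside the gene, and no summit lay within 1 kb of an annotated start.

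In the locus of Snrpn and its neighbours on chromosome 7, 5 of 5 genes had a summit, 7 in all. Ube3a, a ubiquitin ligase gene imprinted in neurons, had the strongest (59228201 to 59229259), 11 bp downstream of the start, with a pileup of 49, a fold enrichment of 12.2 and a −log10 q of 37.8. Snrpn, a splicing factor gene that spans 467683 bp in RefSeq, had 3 summits, none farther than 2104 bp from an annotated start, with fold enrichments of 6.21, 3.90 and 3.90. The MAGE-family genes Ndn and Magel2 and the ring-finger gene Mkrn3, which restrains puberty, had 1 summit each, 352 bp downstream, 34 bp upstream and 88 bp upstream of their starts, with fold enrichments of 7.04, 3.57 and 4.55. All 7 summits of the locus lay within 1 kb of an annotated start, apart from the Snrpn summit at 2104 bp.

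At the genes not yet described, no peak reached a fold enrichment of 10. Nnat, a neuronal membrane protein gene nested in Blcap, had 9.27 at 333 bp downstream of its start (chromosome 2, 157559531 to 157560812; pileup 58, −log10 q 36). Mest, an alpha/beta hydrolase gene, had 8.30 at 247 bp downstream of an annotated start (chromosome 6, 30737512 to 30738627; pileup 33, −log10 q 20.1). That summit was also the strongest in reach of Copg2, a coatomer subunit gene whose own start had 4.56 at 132 bp upstream. Peg3, a zinc-finger gene, had 5.54 and 5.17. Inpp5f, a phosphatase gene, had 7.22 deep inside the gene (chromosome 7, 128687813 to 128688604; pileup 45, −log10 q 23.3) and 5.12 near its start. Gnas, which encodes the stimulatory G protein alpha subunit, had 10 summits, the most of the 36 genes, yet none above 6.10 (chromosome 2, 174330551 to 174330919; pileup 24, −log10 q 11.5). Nap1l5, a gene nested in Herc3, had 1 summit, 85 bp from its start, with 3.90 (chromosome 6, 58906976 to 58907225; pileup 15, −log10 q 4.39).

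At the Dlk1 and Meg3 locus on chromosome 12, 2 summits were found over 4 genes. Dlk1, a Notch-family ligand gene, and the lncRNA gene Meg3 had none within 10 kb, and the nearest summits were 14483 and 12588 bp away. Rian, a host of small nucleolar RNAs, had 1 summit inside it with a fold enrichment of 6.83 (109607870 to 109608326; pileup 27, −log10 q 14.2). Mirg, a host of microRNAs, had 1 summit 567 bp outside it with 3.90. The density was 10.3 summits per Mb of window, beside 5.06 at Igf2r and Airn, 9.59 at the Peg3 locus and 10.6 at the Snrpn locus. Zim1, a zinc-finger gene next to Peg3, was the other gene without a summit, at 31922 bp from the nearest. The absence of a called peak does not show that KLF5 was not bound there, since the lists give only peaks past the authors' cutoff.

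Maternally and paternally expressed genes gave overlapping values. A summit was found at 14 of 16 maternally expressed genes (87.5%, exact Clopper-Pearson interval 61.7 to 98.4) and at 18 of 19 paternally expressed genes (94.7%, 74.0 to 99.9), beside 70.5% of all protein-coding and 51.2% of all lncRNA genes. The intervals cover counting error only and are too narrow where genes share summits. Among genes with a summit, the median strongest peak was 7.93 for maternally and 7.76 for paternally expressed genes, beside 7.71 for all protein-coding genes with a summit. The order of the maternal and paternal medians turned in 4 of 11 alternatives. Without Ube3a, which is imprinted in neurons, the medians were 7.57 for maternally and 7.76 for paternally expressed genes. With Grb10 classed as paternally expressed they were 8.3 and 7.57. The textbook classes were not checked in these cells. A strongest peak of at least 10 was reached by 6 maternally and 6 paternally expressed genes, 37.5% and 31.6%. The shares were 22.2% of all protein-coding and 12.4% of all lncRNA genes. Of the 6 maternally expressed genes, all but Ube3a lie in the Kcnq1 domain. Slc22a18 was counted on the Phlda2 summit and Tssc4 on a summit inside Cd81. Of the 6 paternally expressed genes, only Peg10 and Sgce share a locus. Impact was counted on a summit nearer to Osbpl1a, and the Zdbf2 summit lay inside Gpr1. By summit, 37 were in reach of maternally expressed genes only, with a median of 5.61, 46 of paternally expressed genes only, with 5.27, and 4 of both. The highest values differed, at 17.9 for maternally and 36.4 for paternally expressed genes, with Zdbf2 and Plagl1 (22.3) above the highest maternally expressed value of 17.9 and the other values overlapping. No test was made, because genes of a cluster are not replicates.

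**Figure D4:**
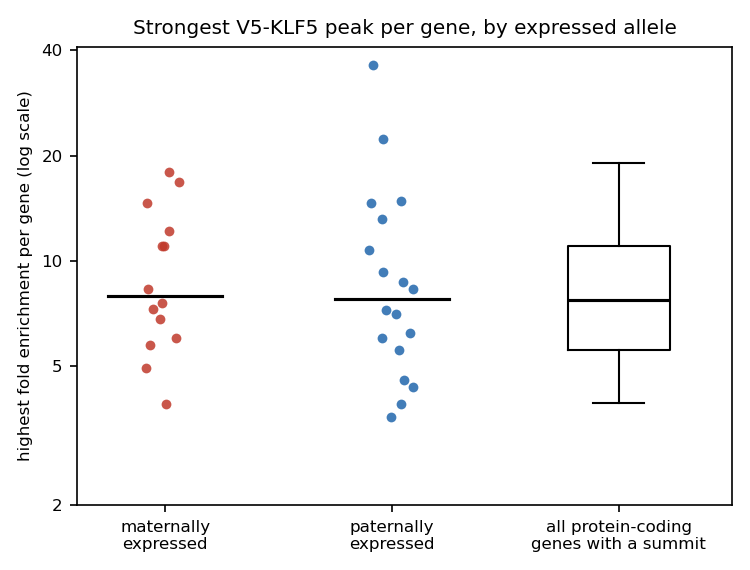
Highest fold enrichment per gene (y axis, log scale) for the 14 maternally and 18 paternally expressed genes with a summit (points, with bars at the medians of 7.93 and 7.76) and for all protein-coding genes with a summit (box from lower to upper quartile, line at the median of 7.71, whiskers at the 5th and 95th percentiles). The groups overlap, and Zdbf2 and Plagl1 are the highest points.

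Other genes of imprinting and IGF signalling were set beside these. Of 36 further imprinted genes, 26 had a summit (72.2%), beside the 70.5% of all protein-coding genes, with a median strongest peak of 10.1. The highest were Gpr1 at 36.4, which is the Zdbf2 summit, H13, a signal peptide peptidase gene, at 24.3, and Ppp1r9a, an actin-binding protein gene, at 21.8. Shared summits were also the strongest of Cd81 and Trpm5 (with Tssc4), Blcap (with Nnat) and Rtl1 (with Rian). This list is therefore not separate from the main one. All 13 genes that set or keep imprints had a summit, against the same 70.5%, with a median strongest peak of 10.1. The highest was the de novo methyltransferase gene Dnmt3a at 31.0, 5720 bp outside it. The corepressor gene Trim28 had 27.9, at a summit 9651 bp outside it and nearer to Zbtb45. The methyltransferase cofactor gene Dnmt3l had 15.1 inside it. The strongest summits of Zfp57, Setdb1 (10.1), Ctcf and Ctcfl also lay outside the gene and nearer to another gene. Those of the remaining genes lay inside. Of 14 genes of the IGF axis, 12 had a summit (85.7%, against 70.5%), with a median strongest peak of 7.69, led by the RNA-binding protein gene Igf2bp1 at 24.5, the insulin receptor substrate gene Irs2 at 13.4 and Igf2bp3 at 10.6. Igf1 and Igfbp1 had none.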

How the data were processed

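Peaks were called by the authors with MACS 2.1.0.20140616, per the file headers, on single libraries against the input of the same cells, with 51 bp tags extended to 250 bp, 1 tag kept per position and a q-value cutoff of 0.05. The submitters' processing notes name mm10 and Bowtie 0.12.8. The authors deposited, per peak, a summit, a pileup signal, a −log10 p-value, a −log10 q-value and a fold enrichment, a ratio over input. The handling of multiply mapping reads was not stated in them.

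From these, 45366 peaks on assembled chromosomes were assigned by summit to RefSeq genes (GRCm38.p6) with Python 3.11.15 and pandas 2.3.3; all 99 listed symbols matched. Strand and starts were taken from RefSeq promoter windows. Input background was recovered from pileup and fold enrichment. The count of summits per gene window was tested on simulated summits. Distinct counts, start distances and nearest genes were not tested in this way. The genes, lists, parental classes and the alternatives were chosen with earlier results of these data known. Strongest peaks of each locus and genes with a strongest peak of at least 8 were given in full; of each other list, the 3 highest. Each group is 1 library, so no p-value was computed, and intervals at 95% cover counting error only. Just inside the 10 kb limit stood summits at 9529 bp (Peg10, 13.2) and 9254 bp (Copg2, 8.30), and just outside it summits at 10216 bp (Airn, 3.66) and 10829 bp (Nap1l4, 11).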

Additional observations from a re-analysis of the deposited data

How the results depend on the processing

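Over 11 alternatives, 76 of the recomputed values stayed within 1.5 times the reported count, or within the interval of the reported median, and 13 did not. With only peaks of a fold enrichment of at least 10, 12 imprinted genes and 12 distinct summits were left, with 6 maternally and 6 paternally expressed genes, a paternal median strongest peak of 14.7, 13 further imprinted genes, 7 imprint regulator genes and 3 genes of the IGF axis. With a −log10 q of at least 10, 44 distinct summits were left. Within 1 kb of an annotated start, 19 of 29 genes and 26 summits were counted, at 7 maternally and 11 paternally expressed genes. Fewer peaks or genes enter these counts by construction. The order of the maternal and paternal medians turned in 4 alternatives, among them nearest gene only, with 7.28 for maternally and 7.76 for paternally expressed genes. Within 50 kb, all 36 genes had a summit. Without the summits on an input background of 6.13 or more, the 95th percentile, an alternative chosen after seeing the data, 30 genes and 91 summits were left. Limits: 1 library per group gives no replicate check. The lowest input background, 3.10, where fold enrichment follows pileup alone, held 40.2% of the 97 summits, beside 37.2% of all peaks. No paired analysis was possible because each group is 1 library and the values come from no test.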
